A study of Mus musculus with 4 samples.

Results

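The levels of DNA methylation at 7 mouse genes, 4 of pluripotency (Pou5f1, Nanog, Dppa3 and Zfp42) and 3 of the germline (Dazl, Mael and Sycp3), were read from maps made by reduced representation bisulfite sequencing (RRBS). In this method genomic DNA is cut with the restriction enzyme MspI at CCGG, which selects CpG-rich fragments, and bisulfite converts unmethylated but not methylated cytosines, so that each read gives a methylated or an unmethylated call at each cytosine of a CpG. Each gene was taken as a window of the genome build mm9, and all cytosine positions in it with at least 5 calls in a library were used. The windows held 174 such positions of 959847 in iPSCs, 278 of 1393990 in NESTIN-GFP precursors, 189 of 909200 in iPSC-DA neurons and 196 of 904699 in mdDA neurons. In all 4 libraries at once, 151 of 629262 positions reached this depth.

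The study compared dopaminergic (DA) neurons made from induced pluripotent stem cells (iPSCs) with their counterparts from the embryo, and has 1 library per condition. The iPSCs had been reprogrammed from embryonic fibroblasts of Pitx3 Gfp/+ mice with retroviral Oct4 (Pou5f1), Klf4, Sox2 and cMyc. The iPSC-DA neurons came from the Pitx3 Gfp/+ line, were differentiated for 4 weeks on MS5 stromal cells and were sorted for PITX3-GFP. The NESTIN-GFP precursors came from iPSCs of another reporter strain, Nestin Gfp/+, after 14 days of differentiation, so that stage and line cannot be told apart in comparisons with them. The primary mesodiencephalic dopaminergic (mdDA) neurons were sorted for PITX3-GFP from midbrains of Pitx3 Gfp/+ mice at embryonic stage E14.5 and carry no reprogramming vector. The files hold no expression, so the cell types were not checked against markers. Libraries held between 31419979 (NESTIN-GFP) and 79648099 (iPSC-DA) calls, and the depth was lowest in that of the precursors (median of 14 calls at positions with at least 5, against 58 to 65 in the others). It also stood apart in its share of methylated calls, 56.1% of all calls against 15.0% to 29.4% in the others.

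Pou5f1 (Oct4) and Nanog are transcription factors that hold cells in the pluripotent state. Zfp42 (Rex1) is a zinc finger gene of undifferentiated stem cells. Dppa3 (Stella) is expressed in primordial germ cells and in the early embryo, where it protects methylation of the maternal genome. Dazl encodes an RNA-binding protein that germ cells need, Mael a factor of the piRNA pathway that represses transposons, and Sycp3 a structural protein of the synaptonemal complex, which pairs chromosomes in meiosis. CpG-rich promoters stay unmethylated in most tissues, and those of germline genes are a known exception, since they gain methylation in somatic cells of the embryo. Methylation of a promoter is generally linked to silencing of the gene.

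The promoters of Dazl and Mael are shown because CpGs at their start sites were covered in all 4 libraries. These CpGs were low in iPSCs and high in the others, except for a CpG of Mael in NESTIN-GFP precursors. At that CpG, 45 bases after the start site, 0 of 20 calls were methylated in the precursors. Both sequences are on the minus strand, 5′ to 3′, from 250 bases before to 50 bases after the RefSeq start site (RefSeq, GRCm38.p6), and lie at chr17:50432896-50433195 (Dazl) and chr1:168168826-168169125 (Mael) of mm9, as placed by the spacing of their CpGs. Capitals mark the CpGs with at least 5 calls in all 4 libraries, 6 of 28 in Dazl and 8 of 24 in Mael.
Dazl: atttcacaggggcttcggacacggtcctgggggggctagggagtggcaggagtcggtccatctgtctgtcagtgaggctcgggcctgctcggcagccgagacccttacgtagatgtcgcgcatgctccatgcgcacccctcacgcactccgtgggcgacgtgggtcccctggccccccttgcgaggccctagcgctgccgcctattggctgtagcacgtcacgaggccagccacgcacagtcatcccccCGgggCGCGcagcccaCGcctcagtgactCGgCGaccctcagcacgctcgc
Mael: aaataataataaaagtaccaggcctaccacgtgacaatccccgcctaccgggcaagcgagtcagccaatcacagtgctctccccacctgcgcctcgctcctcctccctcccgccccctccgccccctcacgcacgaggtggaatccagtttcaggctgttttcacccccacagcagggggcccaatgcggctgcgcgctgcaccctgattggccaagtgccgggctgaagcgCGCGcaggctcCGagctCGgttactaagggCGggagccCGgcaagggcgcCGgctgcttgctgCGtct
The covered positions of Dazl lie from 1 base before to 31 bases after its start site. Those of Mael lie from 17 bases before to 45 bases after its own.

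The promoter of Sycp3 is shown for its E-boxes (CACGTG, which reads the same on both strands), in capitals. It is on the plus strand at chr10:87922082-87922381 of mm9, 5′ to 3′.
Sycp3: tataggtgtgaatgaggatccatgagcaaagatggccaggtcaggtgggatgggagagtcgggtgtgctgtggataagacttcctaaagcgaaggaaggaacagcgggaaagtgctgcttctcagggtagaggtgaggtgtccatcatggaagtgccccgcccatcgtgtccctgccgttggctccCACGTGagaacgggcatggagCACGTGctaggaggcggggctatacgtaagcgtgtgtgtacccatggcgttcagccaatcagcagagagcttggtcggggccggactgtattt
The E-boxes of Sycp3 begin 64 and 43 bases before the start site, that of Mael begins 223 bases before it, and Dazl, Pou5f1, Zfp42 and Nanog have none in the same 300 bases. Of all 27025 genes with a promoter in the RefSeq table, 7.24% have this motif in their promoter. Only 1 of the 15 CpGs of the Sycp3 promoter was covered in all 4 libraries, and its other covered positions lie downstream of it.

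All 7 windows had their lowest level in iPSCs, between 7.08% of calls methylated (Nanog) and 19.4% (Zfp42). In the other libraries the genes fell into different patterns. Zfp42, Mael and Sycp3 were at 85.1% or above in all 3, Dppa3 was between 71.98% and 87.7%, and Pou5f1 and Nanog were far lower in mdDA neurons, at 17.1% and 16.7%, than in NESTIN-GFP precursors, at 56.3% and 56.2%. Dazl was at intermediate levels, which came from neighbouring stretches of high and of low methylation.

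**Figure D1:**
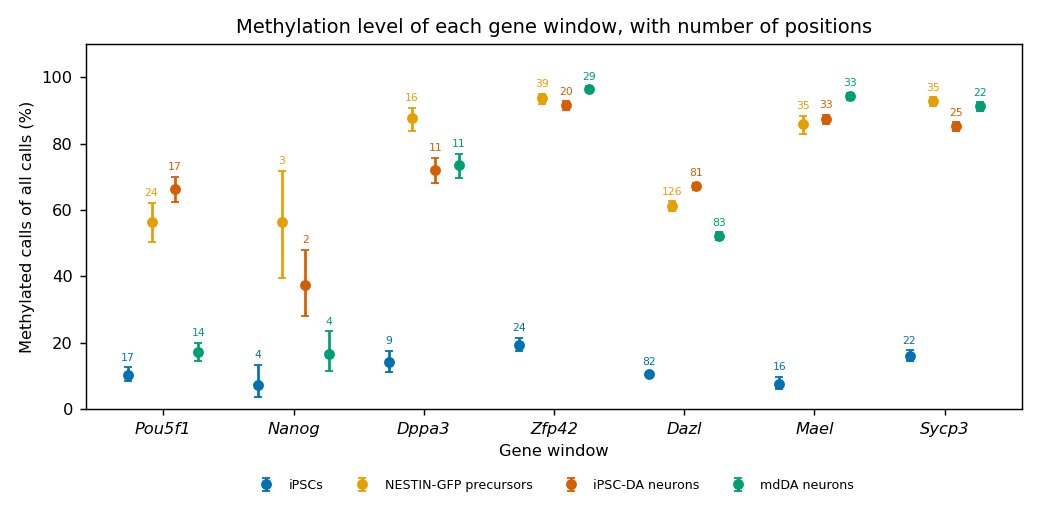
Methylation level (methylated calls as a percentage of all calls, vertical axis) of the 7 gene windows in the 4 libraries, 1 point per library with its 95% Wilson interval and the number of positions printed above it. The iPSCs are the lowest point of each gene, and Pou5f1 is at 66.2% in iPSC-DA and 17.1% in mdDA neurons.

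The comparison of iPSCs with primary neurons shows how far the genes differ between a pluripotent line and neurons of the embryo. Of 170 positions with at least 5 calls in both libraries, 104 were higher in mdDA neurons (two-sided Fisher's exact test per position, adjusted over all positions of the genome, called at an adjusted p under 0.05 where the levels lay 20 percentage points or more apart), against 9.05% of all positions tested. None of the 170 was called lower (1.08% of all positions), and 111 had an unadjusted p under 0.05 in either direction. The median difference was 61.7 points over the windows and 0.79 points over all positions. The calls came from Sycp3 (22 of 22 positions), Mael (16 of 16), Zfp42 (23 of 24), Dazl (37 of 81), Dppa3 (4 of 9) and Pou5f1 (2 of 14), and from none of the 4 positions of Nanog, of which 1 had an unadjusted p under 0.05. With 1 library per condition these tests compare libraries, and calls on the same read or made by PCR from the same molecule are not independent, so that p-values and intervals cover counting error only.

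Dazl, at chr17:50415000-50438000, held the most positions, and its methylation changed along the gene in steps. From 1 base before to 292 bases after the start site (chr17:50432653-50432946), 24 positions were covered in all 4 libraries. They were at 13.0% in iPSCs (95% Wilson interval 11.5% to 14.7%, 1702 calls), 94.8% in NESTIN-GFP precursors (93.3% to 96.0%), 93.6% in iPSC-DA (92.6% to 94.4%) and 93.3% in mdDA neurons (92.3% to 94.2%). Single positions reached 27.3% at most in iPSCs and 54.8% at least in the others. The borders of this stretch were set after its values were seen. All 24 were called higher than iPSCs in each of the iPSC-DA (26.6% of all positions) and mdDA (9.05% of all positions) libraries. The intervals of the iPSC-DA and mdDA libraries overlapped here, and none of the 24 positions was called between them. Of all positions, 17.8% were called higher and 2.46% lower in iPSC-DA than in mdDA neurons.

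The stretch further into the gene differed between the neurons. Between 491 and 784 bases after the start site of Dazl (chr17:50432161-50432454), the 41 positions covered in all 4 libraries were at 4.43% in iPSCs (3.75% to 5.22%), 16.2% in NESTIN-GFP precursors (14.51% to 18.1%), 42.1% in iPSC-DA (40.4% to 43.7%) and 5.50% in mdDA neurons (4.76% to 6.35%). This stretch was thus close to unmethylated in iPSCs and primary neurons and intermediate in iPSC-DA neurons. Its positions ranged, for iPSC-DA, from 25.4% to 77.1%, with a median of 42.9%, and in mdDA neurons the median was 0%, with 34 of the 41 under 10% and the other 7 between 19.4% and 40.4%. In the precursors the 41 positions were uneven, from 0% to 73.3%, with a median of 15.5%. The highest lay 500 bases after the start site (11 of 15 calls). The positions from 719 to 742 bases, with 100 to 116 calls each, were at 4.85% to 16.4% and weigh most in the pooled level. Counting positions covered in the pair compared, 40 of 45 were called higher in iPSC-DA than in mdDA neurons (17.8% of all positions) and 43 of 45 higher in iPSC-DA neurons than in iPSCs (26.6% of all positions), while 1 of 45 was called higher in mdDA neurons than in iPSCs (9.05% of all positions). The borders of the stretches of Dazl were set after their values were seen.

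Upstream of Dazl, between 618 and 492 bases before the start site, iPSCs were at 50.7% over 9 positions (44.96% to 56.4%, 290 calls), against 94.3% in NESTIN-GFP precursors, 89.9% in iPSC-DA and 98.8% in mdDA neurons. Of the stretches of Dazl described, this was the most methylated in iPSCs. It includes both Dazl positions called lower in iPSC-DA than in mdDA neurons, of which the larger difference fell from 98.6% (69 of 70 calls) to 43.6% (17 of 39 calls) at chr17:50433534.

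**Figure D2:**
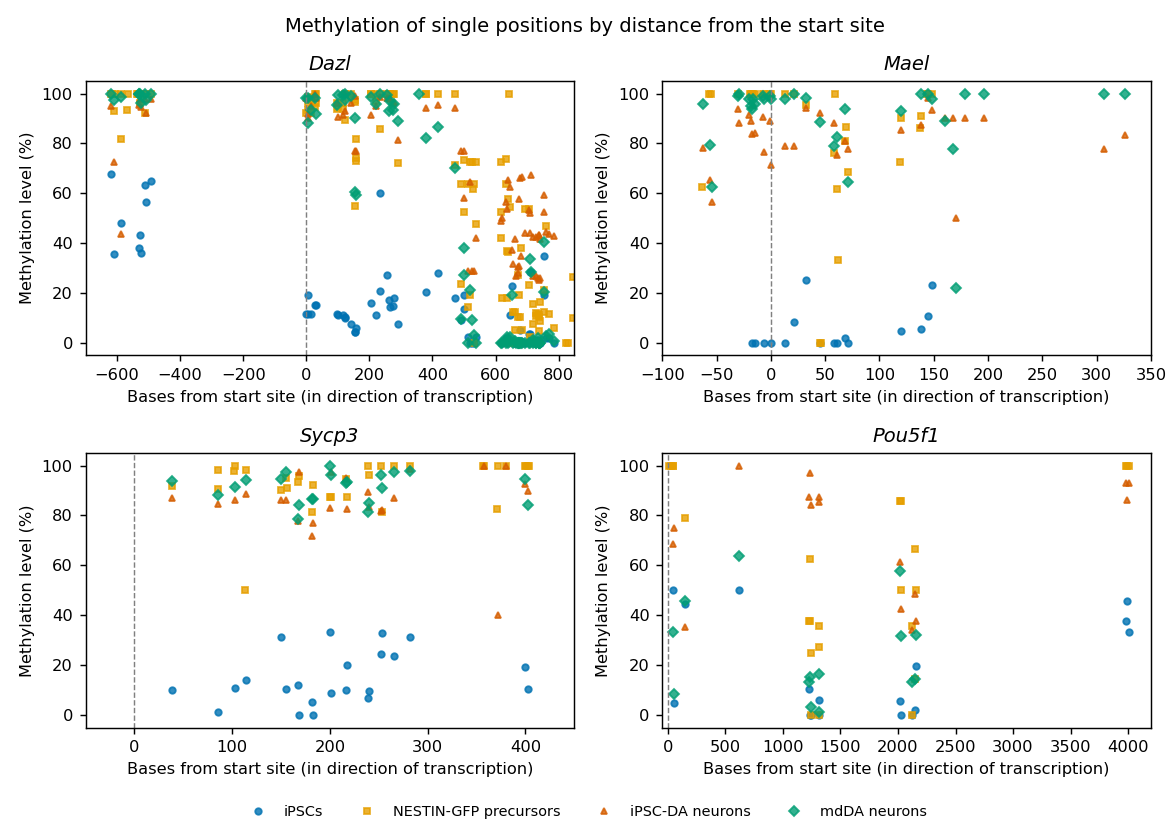
Methylation level (%, vertical axis) of single positions with at least 5 calls by distance from the start site (bases in the direction of transcription, dashed line at 0) for Dazl, Mael, Sycp3 and Pou5f1, with 1 symbol per position and library. In Dazl the iPSC-DA neurons and the mdDA neurons lie together near 94% at the start site and apart, at 42.1% and 5.50%, beyond 491 bases.

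Mael and Sycp3 were methylated in all 3 libraries other than iPSCs. Mael (chr1:168126000-168172000) was at 7.61% in iPSCs (5.99% to 9.62%, 16 positions), 85.9% in NESTIN-GFP precursors (83.0% to 88.4%, 35 positions), 87.3% in iPSC-DA (85.7% to 88.6%, 33 positions) and 94.2% in mdDA neurons (93.0% to 95.2%, 33 positions). At the 3 positions from 17 to 6 bases before its start site, iPSCs had 0 methylated of 36 calls, 12 at each position. The levels were 100% (96 calls), 81.3% (150 calls) and 95.9% (145 calls) in the NESTIN-GFP, iPSC-DA and mdDA libraries. If the 36 calls were independent, they would allow a level of up to 8.33% (3 calls) in iPSCs. Positions this close can share reads, so the limit may be higher. The other 13 positions covered in all 4 libraries lie up to 148 bases after the start site. They were at 7.95% in iPSCs, 83.8% in NESTIN-GFP precursors, 86.6% in iPSC-DA and 93.2% in mdDA neurons. Of these 13, the position 45 bases after the start site had 0 of 20 calls methylated in NESTIN-GFP precursors. It was at 92.2% in iPSC-DA and 88.5% in mdDA neurons. The change in Mael thus spans its start site in each comparison with iPSCs.

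Sycp3 (chr10:87918000-87942000) was covered in all 4 libraries at 22 positions, which lie between 38 and 403 bases after its start site. Their levels were 15.9% in iPSCs (14.4% to 17.6%), 93.0% in NESTIN-GFP precursors (91.4% to 94.3%), 85.2% in iPSC-DA (83.8% to 86.4%) and 91.2% in mdDA neurons (89.7% to 92.4%). None of the 22 was above 33.3% in iPSCs or below 71.8% in another library. All 22 were called higher than iPSCs in the NESTIN-GFP (26.9% of all positions), iPSC-DA (26.6%) and mdDA (9.05%) libraries. The depth at Sycp3 relative to all positions was 1.33 in the iPSC-DA and 0.68 in the mdDA library, and calls on chromosome 10 were higher in iPSC-DA than in mdDA neurons by 0.42 (log2) relative to the autosomes. The part of this in the levels was not tested.

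Among the pluripotency genes, Zfp42 was the most methylated outside iPSCs. Its window (chr8:44376000-44398000) was at 19.4% in iPSCs (17.5% to 21.4%, 24 positions), 93.6% in NESTIN-GFP precursors (92.0% to 94.9%, 39 positions), 91.5% in iPSC-DA (90.2% to 92.7%, 20 positions) and 96.4% in mdDA neurons (95.4% to 97.2%, 29 positions). None of its positions in the 300 bases of its promoter had 5 calls in all 4 libraries. Its covered positions lay from 565 to 399 bases before the start site and again from 10611 to 11399 bases after it, with few covered positions between these stretches, of which the position 881 bases after it was the only one with 5 calls in iPSCs, iPSC-DA and mdDA neurons. In both stretches iPSCs were far below the other libraries. Upstream, the 4 positions in all 4 libraries were at 13.8% in iPSCs, 84.6% in NESTIN-GFP precursors, 93.2% in iPSC-DA and 94.2% in mdDA neurons. Downstream, 15 positions were at 18.97% in iPSCs, 97.0% in NESTIN-GFP precursors, 91.6% in iPSC-DA and 96.1% in mdDA neurons.

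Dppa3 (chr6:122572000-122584000) was at 14.05% in iPSCs (11.2% to 17.5%, 9 positions), 87.7% in NESTIN-GFP precursors (83.6% to 90.8%, 16 positions), 71.98% in iPSC-DA (68.0% to 75.7%, 11 positions) and 73.4% in mdDA neurons (69.6% to 77.0%, 11 positions). The intervals of the neurons overlapped, and the sign of their difference depended on how positions were weighted. Only 3 positions of Dppa3 were covered in all 4 libraries. They were at 13.2% in iPSCs, 73.2% in NESTIN-GFP precursors, 75.7% in iPSC-DA and 82.2% in mdDA neurons. The precursors, highest over the whole window, were thus not the highest at the shared positions. Most calls lay at a pair of neighbouring positions. At one of them, chr6:122583453, iPSCs had 0 methylated of 132 calls, NESTIN-GFP precursors 29 of 44, iPSC-DA neurons 140 of 179 and mdDA neurons 157 of 206. The calls of iPSCs allow a level of up to 2.27% at this position (3 of 132 calls), while most calls of the others were methylated. The RefSeq promoter of Dppa3 was not used here, and its start site was not placed.

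Pou5f1 and Nanog were low in primary neurons as well as in iPSCs. The window of Pou5f1 (chr17:35638000-35650000) was at 10.3% in iPSCs (8.34% to 12.6%, 17 positions), 56.3% in NESTIN-GFP precursors (50.3% to 62.1%, 24 positions), 66.2% in iPSC-DA (62.3% to 69.9%, 17 positions) and 17.1% in mdDA neurons (14.6% to 20.03%, 14 positions). The start site of Pou5f1 was placed at chr17:35642977, and all of its covered positions lie 11 bases or more downstream of it, so that its promoter before the start site was not measured.

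Near the start site of Pou5f1, from 44 to 145 bases after it, the 2 positions in all 4 libraries were at 46.8% in iPSCs (33.3% to 60.8%, 47 calls), 83.3% in NESTIN-GFP precursors (64.1% to 93.3%, 24 calls), 45.3% in iPSC-DA (32.7% to 58.5%, 53 calls) and 41.7% in mdDA neurons (27.1% to 57.8%, 36 calls). At these 2 positions iPSCs were not low, and their interval overlapped with those of both kinds of neurons. A further position, 49 bases after the start site, had only 2 calls in NESTIN-GFP precursors. There iPSCs were low, at 5% (1 of 20 calls), with iPSC-DA neurons at 75% (12 of 16) and mdDA neurons at 8.33% (1 of 12). Among the stretches of Pou5f1 with at least 5 positions, the neurons were farthest apart between 1224 and 1313 bases after the start site of Pou5f1 (chr17:35644201-35644290). There, 5 positions were at 3.32% in iPSCs (1.99% to 5.49%, 422 calls), 23.9% in NESTIN-GFP precursors (13.9% to 37.9%, 46 calls), 88.0% in iPSC-DA (82.7% to 91.9%, 192 calls) and 9.85% in mdDA neurons (7.44% to 12.9%, 457 calls). Each of the 5 was at 84.4% or more in iPSC-DA neurons and at 16.3% or less in mdDA neurons. As a run of positions the difference between iPSC-DA and mdDA neurons was 78.2 points (Fisher's exact test, adjusted p = 7.00e-85). Of all runs of the genome, 24.3% were called higher in iPSC-DA than in mdDA neurons.

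Between 2018 and 2157 bases after its start site, Pou5f1 was at 5.86% in iPSCs, 59.6% in NESTIN-GFP precursors, 42.7% in iPSC-DA (36.6% to 49.02%) and 24.6% in mdDA neurons (19.2% to 31.0%). The iPSC-DA neurons were 18.0 points above the mdDA neurons there, under the 20 points of the call. From 3979 to 4009 bases after the start site, 3 positions were at 38.9% in iPSCs, 100% in NESTIN-GFP precursors but 90.8% in iPSC-DA neurons, and had no calls in mdDA neurons. Retroviral copies of the Pou5f1 coding sequence in the iPSC-derived libraries could add reads to its exons. The median depth over the 12 positions in all 4 libraries, relative to all positions of each library, was 0.65 in iPSCs, 0.53 in precursors, 0.40 in iPSC-DA and 0.73 in mdDA neurons, and the mdDA neurons carry no vector. Whether these positions lie in the coding sequence was not determined, and the part of vector copies in the levels was not tested.

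Nanog (chr6:122652000-122668000) had few covered positions. The 2 positions in all 4 libraries, 10 bases apart, were at 8.70% in iPSCs (4.47% to 16.2%, 92 calls), 75% in NESTIN-GFP precursors (55.1% to 88.0%, 24 calls), 37.5% in iPSC-DA (28.1% to 47.9%, 88 calls) and 16.7% in mdDA neurons (11.3% to 23.9%, 132 calls). The order of the libraries at Nanog thus had NESTIN-GFP precursors above iPSC-DA neurons, and the intervals of iPSCs and mdDA neurons overlapped. The promoter of Nanog could not be placed, so whether it was covered, and how far these positions lie from the start site, was not determined.

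The precursors were also above iPSCs at most positions. From iPSCs to NESTIN-GFP precursors, 122 of 159 positions were called higher (26.9% of all positions) and 2 lower (0.457% of all positions). The median difference was 67.3 points, against 8.10 points over all positions. All 23 positions of Zfp42 and all 22 of Sycp3 were called higher, with 15 of 16 in Mael, 50 of 78 in Dazl, 8 of 15 in Pou5f1, 2 of 3 in Dppa3 and 2 of 2 in Nanog. Both positions called lower lie in the downstream stretch of Dazl, at chr17:50432190 (34.9% in iPSCs and 12.5% in precursors) and chr17:50432235 (28.3% and 2.50%). These comparisons with iPSCs share the same iPSC library.

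From iPSCs to iPSC-DA neurons, 157 of 167 positions were called higher (26.6% of all positions). None was called lower (1.2% of all positions), and 161 had an unadjusted p under 0.05 in either direction. The median difference was 65.5 points, against 5.16 points over all positions. The called positions were 78 of 81 in Dazl, 22 of 22 in Sycp3, 20 of 20 in Zfp42, 16 of 16 in Mael, 13 of 17 in Pou5f1, 7 of 9 in Dppa3 and 1 of 2 in Nanog.

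Between the neurons, the positions called higher in iPSC-DA than in mdDA neurons lay in Pou5f1, Nanog and the downstream stretch of Dazl. Those called lower lay in Mael and in the upstream stretch of Dazl. From mdDA to iPSC-DA neurons, 48 of 183 positions were called higher (17.8% of all positions) and 5 lower (2.46% of all positions). Of the 48, 40 were in Dazl (of 81), 7 in Pou5f1 (of 14) and 1 in Nanog (of 2). No position of Dppa3, Zfp42, Mael or Sycp3 was called higher, of 11, 20, 33 and 22 tested. Over the whole windows iPSC-DA neurons were higher by 44.9 points in Pou5f1 (95% Newcombe interval 39.7 to 49.7), by 20.8 points in Nanog (8.95 to 32.6) and by 15.1 points in Dazl (13.5 to 16.7). They were lower by smaller amounts in Zfp42 (96.2% to 91.5% at the shared positions), Mael (94.2% to 87.3%) and Sycp3 (91.2% to 85.2%). The 3 positions of Mael called lower lie within 21 bases of its start site, at 71.2% to 78.8% in the iPSC-DA library against 98.0% to 100% in that of mdDA neurons.

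**Figure D3:**
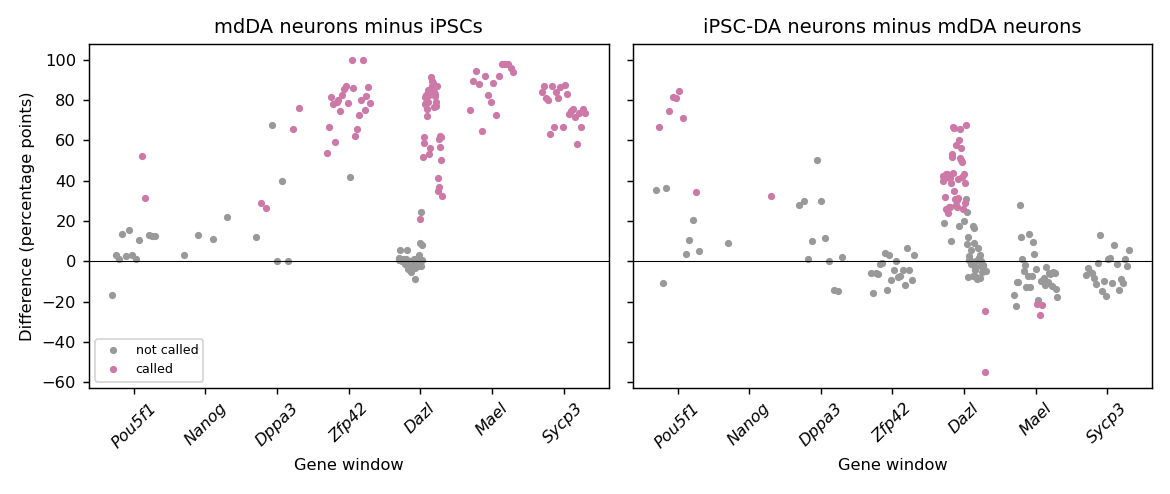
Differences in methylation level (percentage points, vertical axis) at single positions of the 7 gene windows, for mdDA neurons minus iPSCs (left) and iPSC-DA neurons minus mdDA neurons (right), in order of coordinate within each gene, with called positions in colour. In the left panel the positions of Mael and Sycp3 all lie at 57.9 points or more, and in the right panel the called gains are in Dazl, Pou5f1 and Nanog.

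Positions were also pooled in runs, defined as at least 5 positions with 5 calls in all 4 libraries and gaps under 100 bases. The windows held 7 of the 31564 runs of the genome, 2 each in Dazl and Pou5f1 and 1 each in Mael, Zfp42 and Sycp3. All 7 were called higher than iPSCs in the precursors (34.8% of all runs) and in iPSC-DA neurons (37.4% of all runs). In mdDA neurons 5 of 7 were called higher than iPSCs (16.3% of all runs), all but the runs of Pou5f1. From mdDA to iPSC-DA neurons 1 of 7 was called higher (24.3% of all runs), the run of Pou5f1 described above. The larger run of Dazl, which joins the stretch at the start site and the one further downstream, was higher in iPSC-DA neurons by 18.0 points and was not called.

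Promoters of further germline genes were read in the same way, from 45 genes chosen for known roles in germ cells. Of these, 38 had a promoter in the RefSeq table, 21 could be placed on mm9 and 9 had at least 5 positions with 5 calls in all 4 libraries. From iPSCs to mdDA neurons, 8 of 9 rose by at least 20 points, against 1.76% of 5782 promoters measured alike, and no test was made on the list. The same 8 of 9 did so in the precursors (17.2% of all promoters) and in iPSC-DA neurons (18.6% of all promoters), and 0 of 9 from mdDA to iPSC-DA neurons (16.9% of all promoters). The median difference from iPSCs to mdDA neurons was 73.2 points for the list and 0.95 points for all promoters.

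The 8 promoters were those of Ddx4 (the germ cell helicase Vasa), Hormad1 and Hormad2 (proteins of meiotic chromosome axes), Asz1, Gpat2 and Fkbp6 (factors of the piRNA pathway), Sohlh2 (a transcription factor of germ cell differentiation) and Slc25a31 (an ADP/ATP carrier of the testis). The promoter of Ddx4 was at 8.38% in iPSCs, 73.3% in NESTIN-GFP precursors, 79.5% in iPSC-DA and 75.2% in mdDA neurons (40 positions). That of Hormad1 was at 12.1%, 90.0%, 89.2% and 90.3% in the same order (20 positions), and that of Sohlh2 at 8.59%, 91.2%, 91.0% and 96.2% (8 positions). Hormad2 was the lowest of the 8 in mdDA neurons, at 51.7% (48.7% to 54.7%), against 85.9% in precursors and 70.8% in iPSC-DA neurons. Asz1 was the highest of the 8 in iPSCs, at 33.0% (29.1% to 37.2%). Tsga10, a testis gene with a role in the sperm tail, was the exception, at 4.18% or less in every library. Of the 38 promoters of the list in the RefSeq table, 14 (36.8%) hold the E-box CACGTG, against 7.24% of all promoters. The motif contains a CpG, and the median promoter of the list has 17 CpGs, against 7 over all promoters. The part of this in the share was not tested. Of the 8 promoters, those of Ddx4, Hormad1, Fkbp6 and Slc25a31 hold the motif, and those of Asz1, Gpat2, Hormad2 and Sohlh2 do not.

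**Figure D4:**
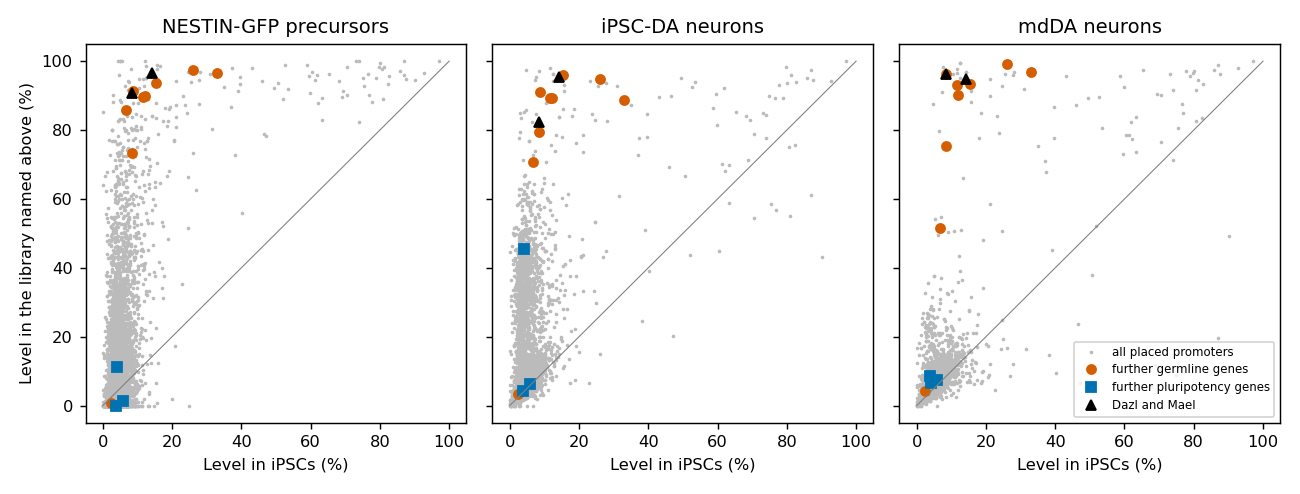
Methylation level of promoters in iPSCs (%, horizontal axis) against that in mdDA neurons, iPSC-DA neurons and precursors in a panel each (%, vertical axis), with 1 grey point for each of 5782 promoters and the line of equal levels. In the mdDA panel 8 of 9 further germline genes, Dazl and Mael lie above 50%, where 1.52% of all promoters lie.

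Of 25 further pluripotency genes, 17 had a promoter in the RefSeq table and 3 were measured, Klf2, Klf4 and Sox2, which are transcription factors. Klf2 and Klf4 were at 8.53% or less in every library. The promoter of Sox2, which is also a gene of neural precursors, was at 4.08% in iPSCs (2.56% to 6.43%, 417 calls), 11.1% in NESTIN-GFP precursors (5.19% to 22.2%, 54 calls), 45.4% in iPSC-DA (38.9% to 52.0%, 216 calls) and 6.58% in mdDA neurons (4.03% to 10.6%, 228 calls). At Sox2 the interval of the iPSC-DA library overlapped with none of the others. It was the only 1 of the 3 that was higher by at least 20 points in iPSC-DA neurons than in iPSCs or mdDA neurons. Of all promoters, 18.6% were so against iPSCs and 16.9% against mdDA neurons.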

How the data were processed

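RRBS data of 4 cell populations were used, 1 library each. The authors trimmed single reads (Trim Galore 0.3.5), aligned them and called methylation (Bareback, Bismark 0.10.1), and deposited the counts of methylated and unmethylated calls per cytosine position, strands separate, and the percent of methylated calls. Their build was inferred as mm9 from the largest position of chromosome 1 (197192264). The precursors are labelled as neurons.

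Genes, further lists (25 and 45 genes) and tests were chosen with earlier results of these data known. All 7 genes are named, and further genes where promoters differ by 20 points between libraries; others were named after their values were seen. A level is methylated over all calls. Fisher's exact tests were adjusted by Benjamini-Hochberg over the genome (Python 3.11.15, scipy 1.17.1; tested on simulated data). RefSeq promoters were placed by CpG spacing, with at least 6 covered positions, none off a CpG and no equal shift within 5000000 bases. After the data were seen, the shift of the nearest placed promoter at least 1000 bases away, on 1 side or the other, was also required, which kept 11161 of 13400. Exons and introns were not assigned.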

Additional observations from a re-analysis of the deposited data

How the results depend on the processing

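Of 196 alternatives for the difference between libraries in a gene window (minimum calls, merged strands, shared positions, unweighted means and left-out positions among them), 174 stayed within the interval of the value given. The direction changed at Dppa3 between mdDA and iPSC-DA neurons, from -1.45 points to 12.1 with an unweighted mean of positions and 6.78 without the position of most calls. Dppa3 also moved from 59.99 to 33.3 points between iPSCs and NESTIN-GFP precursors and from 59.3 to 35.2 between iPSCs and mdDA neurons with an unweighted mean. Of 88 alternatives for counts, 76 were within 1.5 times. Positions lower in iPSC-DA than in mdDA neurons numbered 13 at a difference of 10 points, 1 at 30 points and 3 with strands merged, in place of 5. Those lower in NESTIN-GFP precursors than in iPSCs numbered 0 at 30 points and 1 with strands merged, in place of 2. With at least 10 positions in a run, 4 runs were left, of which 0 were called from mdDA to iPSC-DA neurons and 4 each from iPSCs to NESTIN-GFP precursors and to iPSC-DA neurons. With a minimum of 10 calls, 0 of 5 runs were called from mdDA to iPSC-DA neurons, since the called run of Pou5f1 has few NESTIN-GFP calls. With promoters of at least 3 positions, an alternative chosen after the data were seen, 14 of 15 germline promoters rose from iPSCs in each of NESTIN-GFP precursors, iPSC-DA and mdDA neurons. No paired analysis was possible because each condition has 1 library. The shallow NESTIN-GFP library limits levels of single positions.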
